A study of Mus musculus with 10 samples.

Results

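The genes described here are peptide hormones and neuropeptides made outside the beta cell or in the gut, together with the delta cell factor Hhex and the beta cell peptide Iapp. They were taken from a list of 10 symbols (Cck, Gast, Sst, Hhex, Ppy, Pyy, Npy, Iapp, Ghrl and Gal), matched to the gene symbols of the array, and 9 of the 10 had a probe, with 1 probe each, among 19861 named genes. Pyy is not analysed here. The genes were selected on results of the same arrays, so their differences between the groups are given as a description, with no p-value; how many passed the threshold of the fit over all genes is given once, beside the share of all genes.

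Pancreatic islets were taken from db/db mice and from lean db/+ mice on the C57BLKS/J background, both at 9 weeks of age, with 5 biological replicates per group per the labels. The db allele disrupts the leptin receptor: db/db mice carry it on both chromosomes and db/+ mice on one, so the controls also carry the allele, and the labels give no sex. At this age the labels describe db/db mice as severely hyperglycaemic, with insulin that has come down from its level at a younger age. Each replicate was hybridised to 1 of 10 arrays of 2 colours, with its own islet RNA in Cy5 and a reference in Cy3 that the labels give as RNA from islets of db/+ controls, also at 9 weeks. Values below are log2 ratios of Cy5 over Cy3 or, where stated, intensities in arbitrary units. Between 22657 and 23365 of 23512 probes had a value on an array, and precision is limited by having 5 arrays a group.

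Islet hormones are split between cell types. Delta cells secrete somatostatin, which restrains both insulin and glucagon release, and they depend on the transcription factor Hhex. PP cells secrete pancreatic polypeptide, a relative of neuropeptide Y and peptide YY, and beta cells co-secrete islet amyloid polypeptide with insulin. Cholecystokinin, gastrin and ghrelin are best known from endocrine cells of the gut, and galanin from nerves, whose fibres also reach the islet. Most of these peptides act through G protein-coupled receptors, and they are cut from larger precursors and often amidated before they become active.

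The start regions of 4 of the genes are shown because they are the 4 listed hormones whose groups did not overlap. Each is 300 bases of RefSeq sequence (build GRCm38.p6), written 5′ to 3′ on the gene's strand, from 250 bases before to 50 after the annotated start. Capitals mark the cAMP response element TGACGTCA, its short form TGACG, which reads CGTCA on the other strand, and the E-box CACGTG, searched on both strands and chosen after the sequences had been seen.
Cck, chr9:121495645-121495944, minus strand: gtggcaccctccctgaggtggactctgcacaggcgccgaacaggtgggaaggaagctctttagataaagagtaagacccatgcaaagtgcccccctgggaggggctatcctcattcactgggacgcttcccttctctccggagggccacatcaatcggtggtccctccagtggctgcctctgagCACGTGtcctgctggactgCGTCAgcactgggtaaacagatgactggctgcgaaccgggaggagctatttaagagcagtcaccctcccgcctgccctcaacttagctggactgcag
Sst, chr16:23890795-23891094, minus strand: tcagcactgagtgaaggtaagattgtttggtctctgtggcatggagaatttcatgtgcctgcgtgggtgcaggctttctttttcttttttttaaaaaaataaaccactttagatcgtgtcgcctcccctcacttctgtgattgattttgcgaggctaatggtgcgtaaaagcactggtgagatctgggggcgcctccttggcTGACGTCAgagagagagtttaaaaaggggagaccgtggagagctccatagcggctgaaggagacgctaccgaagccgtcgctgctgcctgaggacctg
Npy, chr6:49822460-49822759, plus strand: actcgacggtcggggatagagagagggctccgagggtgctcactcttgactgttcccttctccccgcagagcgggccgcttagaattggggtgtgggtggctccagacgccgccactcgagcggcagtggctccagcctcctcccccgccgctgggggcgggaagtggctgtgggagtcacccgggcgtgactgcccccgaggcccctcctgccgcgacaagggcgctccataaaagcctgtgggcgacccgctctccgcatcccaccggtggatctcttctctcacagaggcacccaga
Gal, chr19:3414495-3414794, minus strand: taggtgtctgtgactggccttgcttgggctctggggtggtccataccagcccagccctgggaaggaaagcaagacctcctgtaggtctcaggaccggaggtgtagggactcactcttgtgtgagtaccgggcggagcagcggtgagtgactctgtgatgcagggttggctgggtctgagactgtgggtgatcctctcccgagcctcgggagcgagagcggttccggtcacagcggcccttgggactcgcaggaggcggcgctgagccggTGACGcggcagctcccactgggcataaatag

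The Sst window held the whole element TGACGTCA, 48 bases before the start, which is a well-known feature of the somatostatin promoter. It contains the short form on both strands by construction, and 588 of 32851 RefSeq start regions of the same length (1.79%) held it. The Cck window held an E-box 66 bases before the start and a short form 47 bases before it. The Gal window held a short form 19 bases after the start, and the Npy window held none of these letters. The short form was in 20.8% of all start regions and the E-box in 7.15%. None of these motifs was found in the windows of the other listed genes, and a match is not evidence of binding. Sst and Cck, which share the short form, had differences of opposite sign, as follows.

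Cck, which encodes cholecystokinin, had the highest ratios in db/db islets among the listed genes. Its log2 ratios were 4.57, 4.55, 4.58, 4.33 and 4.80 on the 5 db/db arrays, and 0.13, 0, 0, 0 and 0 on the db/+ arrays. The groups lay far apart, and on each db/db array no more than 7 probes had a higher ratio. The mean was 4.57 ± 0.17 (SD, n = 5) in db/db and 0.03 ± 0.06 (SD, n = 5) in db/+, a difference of 4.54 ± 0.08 (SE), which is 23.3-fold.

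The Cck signal differed in both channels. In Cy5, the db/db islets gave 14.28, 20.09, 6.21, 6.86 and 11.71 units, and the db/+ islets gave 0.12, 0.15, 0.12, 0.11 and 0.14 units. Every db/db value was above every db/+ value, and the ratio of the Cy5 means was 92.4. On db/db replicate 2 the Cy5 signal of 20.09 units was close to the array's maximum of 20.79 units. It was further below the maximum on others, 14.28 of 26.94 units on replicate 1 and 6.21 of 20.84 units on replicate 3. Whether the spot was saturated was not tested. The reference RNA carried the same label on all arrays, yet the Cy3 signal of the Cck probe was 0.60, 0.86, 0.26, 0.34 and 0.42 units on the db/db arrays, against 0.11 to 0.15 units on the db/+ arrays. Cy3 was thus 3.94 times as bright on average on the db/db arrays, and it was 3.59% to 4.96% of the Cy5 signal of the same spot. The fold of Cck and its SE therefore depend on the channel used. The Cy5 signal without the reference gave a log2 difference of 6.33 ± 0.28 (SE), against 4.54 ± 0.08 (SE) in the ratio. In the Cy3 channel, after quantile normalization, the Cck probe had a log2 difference of 1.83 ± 0.30 (SE). It was not among the probes called in that channel after adjustment over all probes, and what moved its Cy3 signal was not tested.

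**Figure D1:**
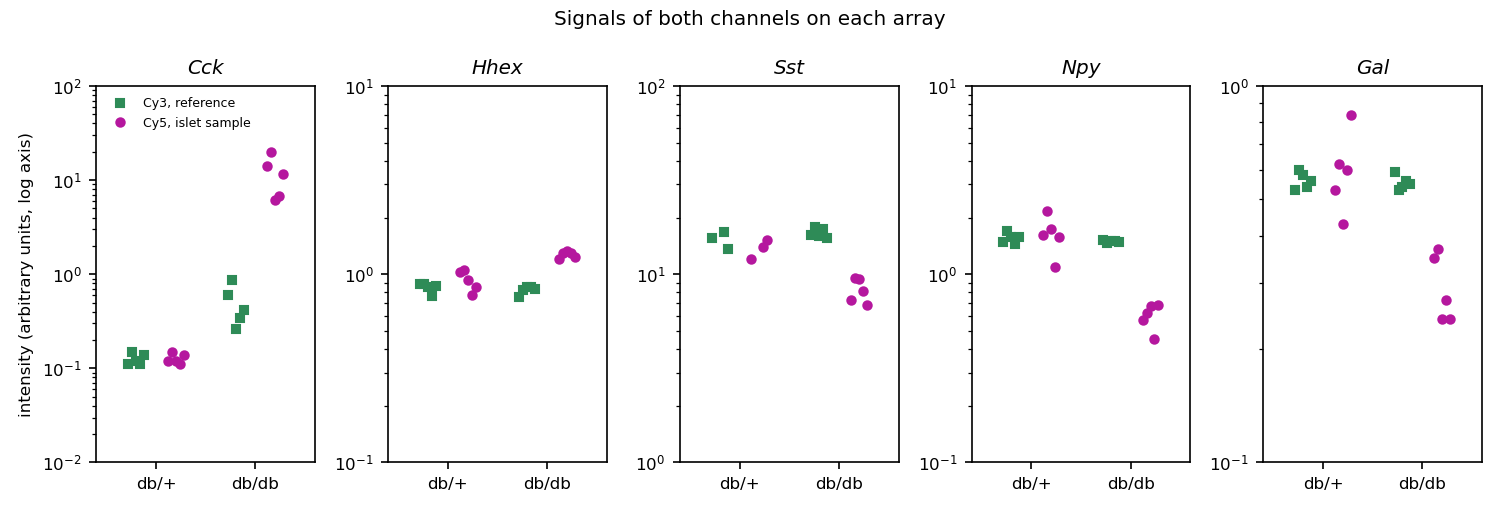
Cy3 (reference, green squares) and Cy5 (islet sample, purple circles) intensities on a log axis, in arbitrary units, for 5 genes with 1 point per array and channel, grouped by the genotype of the islets. For Cck both channels are higher on the db/db arrays, with Cy5 between 6.21 and 20.09 units, while for the other 4 genes the Cy3 signals of the groups overlap.

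The other gut hormones gave low signals in both groups. Gast encodes gastrin, which shares the receptor Cckbr with cholecystokinin, and its log2 ratios were 0.12, -0.29, -0.49, -0.15 and -0.58 in db/db and -0.29, -0.42, -0.36, -0.32 and -0.14 in db/+. The groups overlapped, with a difference of 0.03 ± 0.13 (SE), and the Gast signal in both channels was 0.07 to 0.15 units. Ghrl, which encodes the appetite hormone ghrelin, gave 0.01 to 0.03 units in every channel of every array. Since intensities were rounded to 0.01, its ratios (0 on all 5 db/db arrays and -1 to 1 on the db/+ arrays) count single rounding steps and show no order.

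The delta cell genes Sst and Hhex differed in opposite directions. Sst, which encodes somatostatin, had log2 ratios of -1.15, -0.91, -0.76, -1.10 and -1.19 in db/db. In db/+ its ratios were -0.38, -0.26 and 0.16 in replicates 1, 4 and 5, and replicates 2 and 3 were blank. The groups did not overlap in the values that were present. The mean was -1.02 ± 0.18 (SD, n = 5) in db/db and -0.16 ± 0.28 (SD, n = 3) in db/+, a difference of -0.86 ± 0.15 (SE), or 1.81-fold lower. In Cy5 the db/db islets gave 6.83 to 9.50 units and the db/+ islets 11.98 to 15.18 units, and the Cy3 signals overlapped at 13.63 to 17.87 units. Because 2 of 5 db/+ values were missing, the Sst value rests on 8 arrays. Its Cy3 signals lay near the maximum of some arrays, 17.87 of 18.89 units on db/db replicate 2 and 15.64 of 16.39 units on db/+ replicate 1. They lay further below it on others, 15.90 of 20.43 units on db/db replicate 3 and 13.63 of 17.61 units on db/+ replicate 5. Whether spots were saturated is not stated in the labels or headers and was not tested, so the fold of Sst is uncertain.

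Hhex, the homeobox factor that delta cells need to keep their identity, had log2 ratios of 0.66, 0.66, 0.65, 0.60 and 0.58 in db/db. In db/+ they were 0.21, 0.24, 0.13, 0.02 and -0.02, all below every db/db value. The means were 0.63 ± 0.04 (SD, n = 5) and 0.12 ± 0.11 (SD, n = 5), a difference of 0.51 ± 0.05 (SE), or 1.43-fold higher. In Cy5 this was 1.20 to 1.33 units against 0.78 to 1.05 units. In bulk islets, fewer cells of a type and less RNA per cell cannot be told apart, for Sst as for every gene here.

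**Figure D2:**
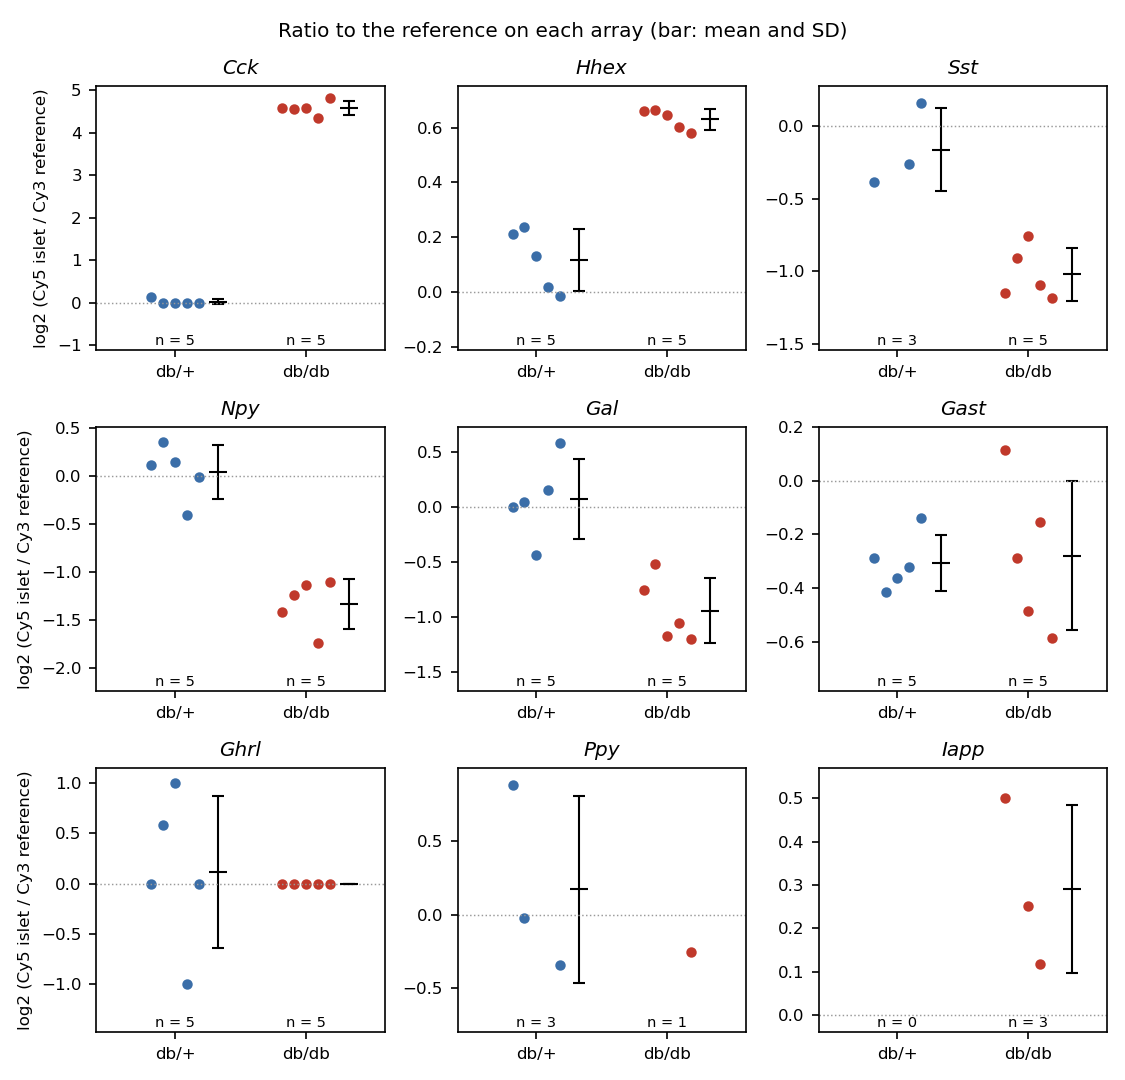
Log2 ratios of Cy5 (islet sample) over Cy3 (reference) for the 9 genes on the array, 1 point per array, db/+ in blue and db/db in red, with the mean and SD as a black bar and the number of values below; the y axes differ between genes. Cck and Hhex are higher and Sst, Npy and Gal lower in db/db without overlap, Gast and Ghrl overlap, and Ppy and Iapp have too few values for a difference.

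In the neuropeptide Y family, Npy was lower in db/db islets. Npy encodes a peptide of sympathetic nerves that is also made in islets and restrains insulin release. Its log2 ratios were -1.42, -1.25, -1.14, -1.75 and -1.11 in db/db and 0.11, 0.35, 0.14, -0.41 and -0.01 in db/+. The groups lay apart, and 98.7% to 99.8% of the probes of each db/db array had a higher ratio than Npy. The means were -1.33 ± 0.26 (SD, n = 5) and 0.04 ± 0.28 (SD, n = 5), a difference of -1.37 ± 0.16 (SE), or 2.58-fold lower. The Cy5 signal was 0.45 to 0.69 units in db/db and 1.09 to 2.16 units in db/+, with Cy3 signals of 1.45 to 1.69 units on all arrays.

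Ppy, the gene of pancreatic polypeptide, was blank on 6 of the 10 arrays. Its log2 ratios to the reference were 0.88, -0.02 and -0.34 in db/+ replicates 1, 2 and 5, and -0.25 in db/db replicate 5. The one high ratio came with a low reference signal, 8.60 units in Cy3 against 15.01 to 15.91 units on the other 3 arrays. The Cy5 signals were 12.54 to 15.85 units in db/+ and 12.60 units in db/db, and no difference between the groups was computed.

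Iapp encodes islet amyloid polypeptide, which slows gastric emptying and, in humans, forms islet amyloid. It had values on 3 db/db arrays only, with log2 ratios of 0.50, 0.25 and 0.12 in replicates 1, 3 and 4 (0.29 ± 0.19, SD, n = 3). The signal was 18.10 to 20.31 units in Cy5 and 14.36 to 16.67 units in Cy3. On db/db replicate 4 the Cy5 signal of 18.10 units was close to the array's maximum of 18.33 units. It was 19.62 of 20.84 units on replicate 3 and 20.31 of 26.94 units, further below the maximum, on replicate 1. The doubt about saturation holds for Iapp as well. Since every db/+ array was blank, the ratio compares db/db islets with the reference and not with the db/+ replicates.

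Gal, which encodes galanin, an inhibitor of insulin release, was lower in db/db islets. Its log2 ratios were -0.75, -0.52, -1.17, -1.05 and -1.20 in db/db and 0, 0.05, -0.43, 0.15 and 0.58 in db/+. The lowest db/+ value, in replicate 3, lay just above the highest db/db value, in replicate 2. The means were -0.94 ± 0.29 (SD, n = 5) and 0.07 ± 0.36 (SD, n = 5), a difference of -1.01 ± 0.19 (SE), or 2.01-fold lower, with 0.24 to 0.37 units in Cy5 in db/db and 0.43 to 0.84 units in db/+. Markers of acinar cells, the enzyme-secreting cells around the islets, were summed on the same arrays: over 6 genes the Cy5 signal was 10.3 to 22.7 units in db/db and 21.4 to 31.3 units in db/+, with overlap. Amy2b and Cel carried most of the sum. By the test 1 of the 6 (Amy2b, log2 difference -1.13) was lower and 0 were higher (16.7%, against 35.2% of all genes). Cel and Ptf1a had log2 differences of -0.71 and -0.78 and fell just short of the threshold (adjusted p = 0.0602 and 0.0578, limma). Bhlha15, Rbpjl and Pla2g1b had log2 differences of -0.04, 0.06 and -0.03. Of 13 acinar markers listed, 11 were on the array, and the enzyme genes Cpa1, Cpb1, Pnlip, Cela1 and Cela2a had too few values to be tested. In both groups the array with the highest and the array with the lowest Gal ratio were also those with the highest and lowest acinar sum. Their part in the Gal result was not tested.

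Across all genes, limma with Benjamini-Hochberg adjustment called 6896 of 19567 genes at 0.05 (35.2%), 3349 higher and 3547 lower, with a median log2 difference of -0.02. Of the 7 listed genes that had at least 3 values in each group, 5 passed that threshold (Cck and Hhex higher, Sst, Npy and Gal lower). The listed genes were selected on this contrast, so nothing is read from that count. Of the 6 genes with all 10 values, 4 had groups that did not overlap, where 26.1% of all such genes did. The Cy3 channel, with the reference on every array, had 5 of 23138 probes called (0.0216%) and 1113 at an unadjusted p under 0.05, and the 5 called were Nxnl1, Tet1, Cyp26b1, Pdyn and 1810009J06Rik.

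**Figure D3:**
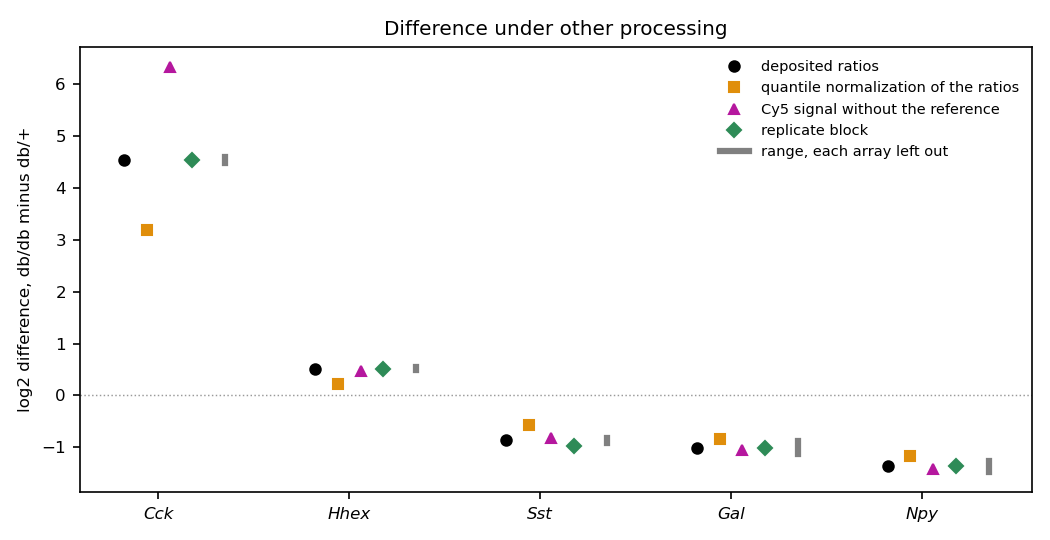
Log2 difference of db/db minus db/+ (y axis) for 5 genes under the deposited ratios, quantile normalization of the ratios, the Cy5 signal without the reference and a replicate block, with a grey bar for the range when each array is left out in turn. Cck moves between 3.18 and 6.33 and Hhex is at 0.23 under quantile normalization, and the direction of each of the 5 genes stays the same under the settings shown.

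Of 20 receptor and accessory genes of these hormones tested, 2 were higher and 2 lower in db/db, where 35.2% of all genes were called, and the median log2 difference was -0.08. Cckar, the receptor of cholecystokinin best known from acinar cells, fell by 1.70 on the log2 scale (SE 0.34, 3.26-fold, adjusted p = 0.00384, limma), with ratios of -2.60 to -1.05 in db/db and -0.99 to 0.27 in db/+. Among the acinar markers given for Gal, 1 of the 6 that could be tested was lower, and Cel and Ptf1a, at -0.71 and -0.78, fell just short. The part of the acinar markers in the Cckar result was not tested. Cckbr, which binds gastrin as well, had a difference of 0.21 ± 0.08 (SE) that did not pass (adjusted p = 0.0708, limma). Sstr2, a receptor of somatostatin, fell by 0.37 on the log2 scale (SE 0.08, adjusted p = 0.0056, limma), and its other tested probe gave -0.04. The remaining 4 somatostatin receptors (Sstr1, Sstr3, Sstr4 and Sstr5) did not pass. Quantile normalization of the ratios ended the calls of Sstr2 and Ramp1 (adjusted p = 0.0686 and 0.259, limma).

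Ramp2 and Ramp1 encode accessory proteins that change which peptide of the calcitonin and amylin family a receptor binds. Ramp2 rose by 1.51 on the log2 scale (SE 0.17, 2.85-fold, adjusted p = 0.000128, limma), though its other tested probe gave -0.12. Ramp1 rose by 0.43 (SE 0.09, 1.35-fold, adjusted p = 0.00523, limma), and neither Calcr nor Ramp3 passed. None of the tested receptors of neuropeptide Y, galanin or ghrelin passed.

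**Figure D4:**
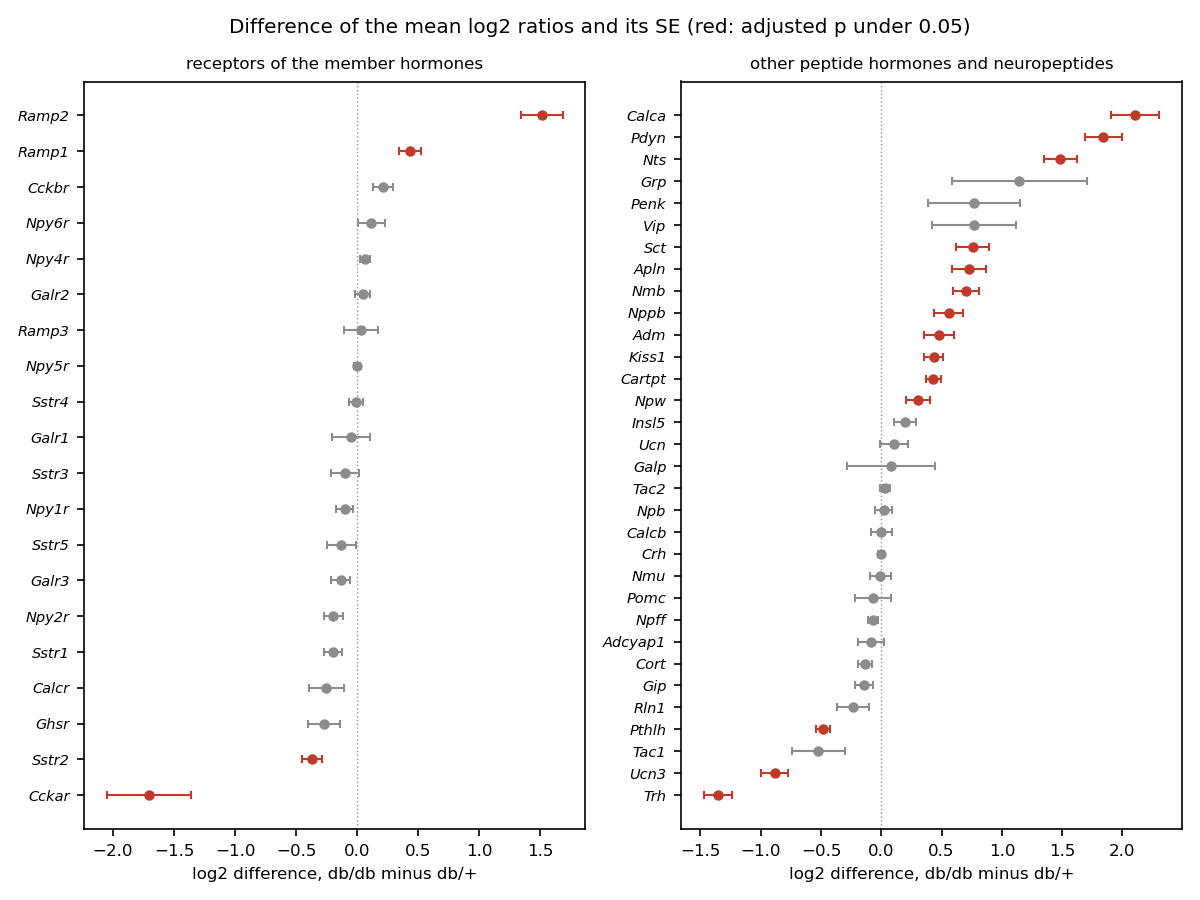
Log2 difference of db/db minus db/+ with its SE for 20 receptor and accessory genes (left) and 32 other peptide genes (right), with genes at an adjusted p under 0.05 in red and the others in grey. Cckar and Ramp2 stand at opposite ends of the receptors, and Calca, Pdyn, Nts and Trh are the widest of the called peptides.

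Among 32 other tested peptide hormones and neuropeptides, 11 were higher and 3 lower in db/db (43.8%, against 35.2% of all genes), with a median log2 difference of 0.09, and after quantile normalization 6 were higher and 3 lower. Calca, which encodes calcitonin and the sensory-nerve peptide CGRP, rose by 2.10 on the log2 scale (SE 0.20, 4.30-fold, adjusted p = 4.89e-05, limma). Nts, the gene of the gut and brain peptide neurotensin, rose by 1.49 (SE 0.13, 2.80-fold, adjusted p = 3.56e-05, limma). Trh, which encodes thyrotropin-releasing hormone and is known from islets of newborn rodents, fell by 1.35 (SE 0.12, 2.56-fold, adjusted p = 2.75e-05, limma). In each of these 3 genes the arrays of the groups did not overlap.

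Pdyn, the precursor of the opioid peptide dynorphin, passed in the ratio (log2 difference 1.84 ± 0.15, SE, adjusted p = 8.35e-05, limma) with values on 3 db/+ arrays. It is also 1 of the 5 genes called in the Cy3 channel, with mean Cy3 of 6.08 units on db/db arrays and 15.7 units on db/+ arrays. The Cy5 means were 19.7 and 14.4 units, and in Cy5 without the reference the difference was 0.28 and did not pass, so the call of Pdyn was lost without Cy3. Of the other called peptides, named after their values were seen, Sct, Nmb, Cartpt, Apln, Adm, Npw, Nppb and Kiss1 were higher and Ucn3 and Pthlh lower. The Ucn3 call rests on mean Cy5 signals of 0.022 and 0.034 units, a step or so of rounding, and 6 of the 32 tested peptides had a mean Cy3 under 0.049 units, the lower quartile of all probes. Gcg and Ucn2 had too few values to be tested.

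Genes that process or break down peptides had 6 of 10 called higher and 0 lower (60.0%, against 35.2% of all genes), with a median log2 difference of 0.52. Dpp4, the membrane peptidase that inactivates incretins and clips neuropeptide Y, rose by 1.46 on the log2 scale (SE 0.07, 2.75-fold, adjusted p = 1.09e-06, limma). Qpct, which forms the pyroglutamate end of peptides such as gastrin and Trh, rose by 0.74 (SE 0.09, 1.67-fold, adjusted p = 0.000178, limma). Pam, the enzyme that amidates cholecystokinin and neuropeptide Y, rose by 0.65 (SE 0.08, 1.57-fold, adjusted p = 0.000374, limma). Tpst1, a tyrosine sulfotransferase of the kind that sulfates cholecystokinin, rose by 0.45 (SE 0.06, 1.37-fold, adjusted p = 0.000314, limma). Its paralogue Tpst2 gave -0.17 ± 0.08 (SE) and did not pass. Scg5 and Furin, named after their values were seen, were the other called genes, and Ide, Pcsk5 and Pcsk1n did not pass. Furin rose by 0.59 on the log2 scale, though its other tested probe gave -0.12. With the mean of a gene's probes, 5 of the 10 genes were called. In the 6 genes called in the main fit the groups did not overlap, but summed duct markers moved with the same contrast. Over 9 duct genes the sum was 17.6 to 25.7 units in db/+ and 25.9 to 32.2 units in db/db. Of the 9, 3 rose (33.3%, near the 35.2% of all genes), and the part of the duct markers was not tested. After quantile normalization 4 of the 10 processing genes were called, all higher, and Qpct was not among them (adjusted p = 0.0582, limma).

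**Figure D5:**
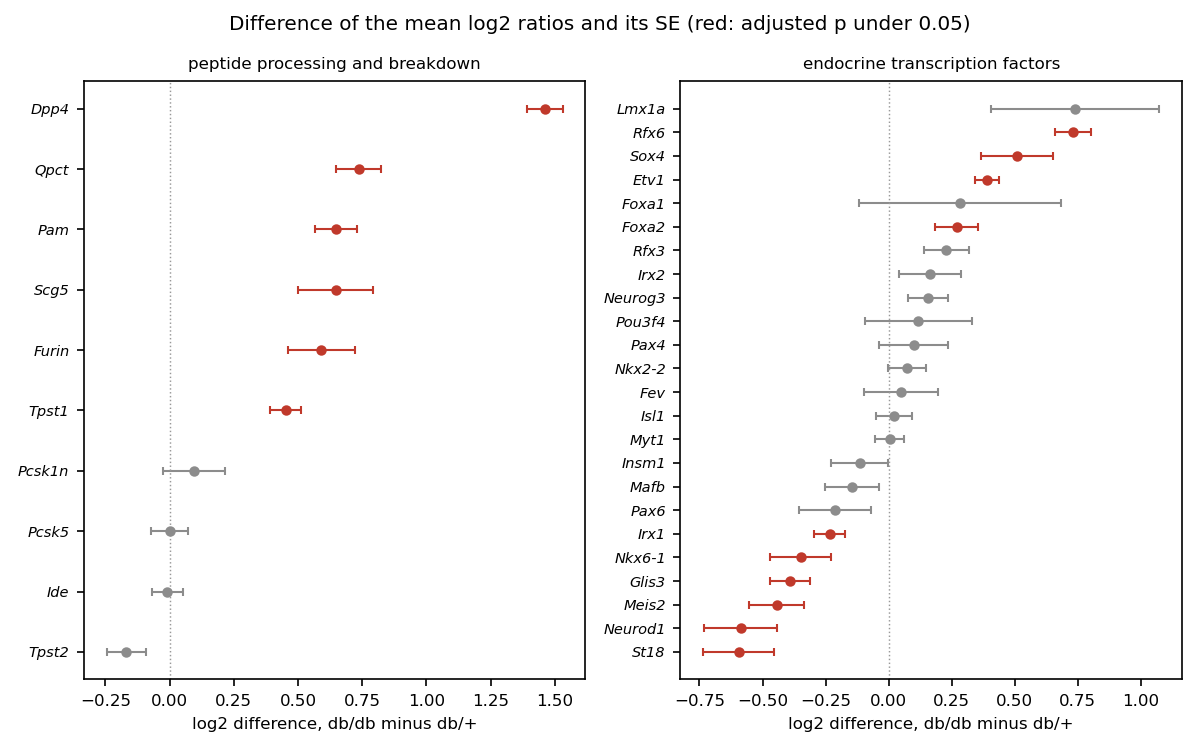
Log2 difference of db/db minus db/+ with its SE for genes of peptide processing and breakdown (left) and endocrine transcription factors (right), with genes at an adjusted p under 0.05 in red. Called processing genes lie above 0, while called factors lie on both sides.

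Of 24 endocrine transcription factors tested, 4 were higher and 6 lower (41.7%), a share near the 35.2% of all genes, and the median log2 difference was 0.06. Rfx6, a factor of islet cell formation, rose by 0.73 on the log2 scale (SE 0.07, 1.66-fold, adjusted p = 5.07e-05, limma). Etv1 rose by 0.39 (SE 0.05, 1.31-fold, adjusted p = 0.000178, limma). Glis3, which beta cells need for insulin expression, fell by 0.39 (SE 0.08, adjusted p = 0.00361, limma), with -0.11 and -0.05 for its other tested probes. Meis2 fell by 0.44 (SE 0.11, adjusted p = 0.0103, limma). Arrays of the groups stood apart in 5 of the 10 called factors. After quantile normalization 2 were higher and 2 lower, and Etv1, Glis3 and Meis2 were no longer called (adjusted p between 0.19 and 0.364, limma).

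Delta cell markers other than Sst and Hhex had 1 higher and 2 lower of 7 tested (42.9%, near the 35.2% of all genes), with a median log2 difference of -0.14. Rbp4, a retinol carrier that marks delta cells in mouse islets, fell by 1.11 on the log2 scale (SE 0.15, 2.17-fold, adjusted p = 0.000343, limma). Ffar4, a receptor of fatty acids found on delta cells, fell by 0.41 (SE 0.12, 1.33-fold, adjusted p = 0.0269, limma). That call was lost when db/+ replicate 3, 4 or 5 or db/db replicate 4 or 5 was left out, with adjusted p between 0.0504 and 0.0658, and in Cy5 without the reference (adjusted p = 0.0728, limma). Summed over 6 of these markers, the Cy5 signal was 6.96 to 8.38 units in db/db and 7.86 to 11.02 units in db/+, so the ranges overlapped. After quantile normalization Rbp4 was the 1 marker still called.

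Markers of the other cell types were measured on the same arrays, where 35.2% of all genes were called. Beta cell markers summed to 11.2 to 12.3 units in db/db and 19.1 units or more on every db/+ array, with 6 of 8 tested lower (75.0%). Alpha cell markers summed to 21.2 to 30.2 units and 9.54 to 10.9 units, with 3 of 6 higher and 1 lower (66.7% called). Nerve and glia markers are given because Npy and Gal are nerve peptides. They summed to 4.10 to 4.61 units in db/db and 3.91 to 5.44 units in db/+. Of these markers 2 of 12 were lower (16.7%, below the share of all genes). Markers of gut epithelium, where Cck is a hormone gene, summed to 2.39 to 3.68 units in db/db and 2.26 to 2.73 units in db/+. Of the gut markers 2 of 6 were higher (33.3%, near the share of all genes). The nerve and glia ranges overlapped, as did those of gut epithelium, though Krt20 rose 3.69-fold (adjusted p = 0.00309, limma) without overlap of the groups and Cdx1 rose by 0.26 on the log2 scale (adjusted p = 0.0464, limma). Cdx2 and Lgr5 gave mean Cy5 signals of 0.012 to 0.024 units in both groups. The part of these cell types in the results was not tested.

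The genes whose ratios were most like those of the listed genes were found by Pearson's r over the 10 arrays among 18635 genes, where the shared group difference sets most of the likeness. For Cck they were Slc9a9 (r = 0.998), Dnah9 (r = 0.998) and Aldh1a3 (r = 0.997), and the last of these had the wider difference, 5.40. For Npy they were Desi1 (r = 0.986), Sult1c2 (r = 0.976) and Amer2 (r = 0.975). For Gal they were Homer2 (r = 0.976), Hspa1a (r = 0.971) and Klk1b21 (r = 0.969). For Hhex they were Hexim2 (r = 0.995), 1810014F10Rik (r = 0.994) and Rhbdd2 (r = 0.993). The deviations of Npy and Gal from their group means, both genes being lower in db/db, had r = -0.22 over the 10 arrays.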

How the data were processed

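RNA of 5 db/db and 5 db/+ islet samples was measured on 10 arrays of 2 colours, all with the islet sample in Cy5 and the reference in Cy3, per the labels. Trizol extraction was followed by amplification of 100 ng in 2 rounds, per the labels' protocols. The submitters' processing notes name Agilent Feature Extraction, version 8.5.1.1. The authors deposited an intensity per probe and channel, mostly rounded to 0.01 units, with a p-value per probe and array, and a table of log10 ratios. The deposited log10 ratio equalled log10 of Cy5 over Cy3 within 4.98e-07, which sets the direction. How background, dye bias and blanks (1.75% of values) were handled is not stated in the labels or headers. Calls did not use the deposited p-value.

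Ratios were turned to log2 with no pseudocount or further scaling. Each gene was its probe of highest mean Cy3 with at least 3 values per group, and probes with no symbol were left out. RefSeq (GRCm38.p6) gave the names, by current symbol (18956 probes), synonym (1775) or accession (623), with 913 kept as in the file and 1245 unnamed. The test was limma's (version 3.58.1, R 4.3.3; lmFit and eBayes, 2-sided, Benjamini-Hochberg over 19567 genes, threshold 0.05). A fold is the log2 difference turned back to the linear scale. The fit was tested on simulated data. Arrays within db/db correlated at 0.729 or more over all probes, and the lowest correlation, -0.166, was within db/+, whose ratios to a db/+ reference lie near 0. No 2 arrays were identical. Replicates are given by the labels as biological; nothing else says how many animals each came from.

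The listed genes, the gene lists and the motifs were chosen with earlier results of these data known. In each list the 4 called genes with the lowest adjusted p are named, and every gene of a list in which under 3 were called; every other list or marker gene named was chosen after its values were seen. The values of 1 called delta cell marker are not reported here. Other steps used Python 3.11.15, pandas 2.3.3 and matplotlib 3.10.9.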

Additional observations from a re-analysis of the deposited data

Results flagged for a closer look

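Of 49 groups of values checked for 1 array far from the others, 2 passed the limit, where chance gives about 1 in 20. Cck in db/+ had 1 array, replicate 1, at a log2 ratio of 0.1255 while the other 4 arrays were at 0; its signals there were 0.12 and 0.11 units, a single rounding step apart. Etv1 in db/+ had replicate 1 at 0, below the other 4 arrays.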

How the results depend on the processing

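Quantile normalization of the ratios lowered the calls most: 3184 genes passed (1677 higher, 1507 lower) in place of 6896. The lists then gave 2 receptors, 9 other peptides, 4 processing genes, 4 transcription factors and 1 delta cell marker. Limiting the test to probes at or above the median intensity left 12 other peptides to test. Of these 6 were called, all of them among the 14 called before. Without further scaling the Cy3 channel had 3 called probes, and with each array left out it had 2 to 7. Leaving out each array gave 6038 to 6726 called genes. Of 113 alternative values of the listed genes, no called value changed sign and 5 moved: Cck to 3.18 and Gast to 0.31, Sst to -0.58 and Hhex to 0.23 under quantile normalization (where Sst, Hhex and Gal no longer passed), and Cck to 6.33 in Cy5 without the reference. Gast and Ghrl, not called under any setting, changed sign between settings, over -0.07 to 0.31 and -0.40 to 0.10. Sst could not be fitted without db/+ replicate 1, 4 or 5, which leaves too few values. Of 315 alternative values of named list genes, 0 reversed and 16 lost the call, among them Pdyn, Etv1 and Ffar4 in Cy5 without the reference and Ramp1, Sstr2, Qpct, Etv1, Glis3, Meis2 and Ffar4 under quantile normalization; the cause was not tested. With the replicate number as a replicate block, 6781 genes passed (3251 higher, 3530 lower) and the lists gave 5 receptors, 13 other peptides, 6 processing genes, 8 factors and 4 delta cell markers. Deviations of same-numbered arrays correlated at 0.037 to 0.221, all weak but positive. The db/db array that correlated best with a db/+ array had the same number for replicate 4, but not for replicates 1, 2, 3 and 5. Whether same-numbered arrays share a batch or a pairing cannot be decided from these values.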
